A study of Mus musculus with 6 samples.

Results

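Dut, Rrm1, Rrm2, Tyms and Tk1 encode enzymes that supply deoxynucleotides for DNA synthesis, and their transcripts were measured in mouse embryonic fibroblasts with and without cyclophilin D. The genes were chosen by symbol in the probe annotation of the processed table. All 5 were found there among 7606 named genes, with 9 of the 10653 probes that carry a single symbol. Dut had 1 probe, and the other 4 genes had 2 probes each. The annotation covers only probes that the processed table lists, each of which varied at least 1.20-fold over the arrays, so further probes of these genes were not analysed here.

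The cells were fibroblast cultures from E13.5 embryos of C57BL/6 background, without treatment. Knockout cells (CypD -/-) filled 3 Illumina bead arrays, and wild-type cells the other 3, each set with letters A, B and C. The series title places the work in cell cycle progression and chemokine-directed motility, and the design compares the genotypes. The labels give neither the deleted exons nor the embryos or cultures behind each letter, so p-values rest on how far these arrays vary within a genotype, and that variation may be technical.

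Deoxynucleotides are made mainly by ribonucleotide reductase, which turns ribonucleoside diphosphates into their deoxy forms. Rrm1 is its large subunit, which holds the active site and the allosteric sites, and Rrm2 is the small subunit that carries the radical needed for catalysis and is made in S phase. Dut hydrolyses dUTP to dUMP, which keeps uracil out of DNA and provides the substrate of Tyms, thymidylate synthase. Tyms methylates dUMP to dTMP with a folate cofactor, whereas Tk1 makes dTMP by phosphorylating salvaged thymidine in the cytosol. In cycling cells these genes are known as targets of E2F factors that rise toward S phase.

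The 5 genes went in different directions in knockout cells. Dut was 1.42-fold lower, while Rrm1 rose 1.21-fold and Rrm2 1.15-fold, the last with a call that was lost when any array was left out. Tyms and Tk1 did not pass, with values of 0.16 for Tyms and -0.17 for Tk1 on the log2 scale. By the brightest probe of each gene, 2 rose, 1 fell and 2 did not pass, at an adjusted p under 0.05 in limma. Of 7605 named genes tested, 43.6% passed, 21.8% upward and 21.8% downward, so 3 of 5 lies near that background. Of the 9 probes 3 passed, against 42.1% of all named probes and 20.0% of all 27168 probes tested. The median log2 difference was 0.16 over the 5 genes and 0.0082 over all named genes. In a bulk culture, fewer cells in S phase and less of a transcript per cell cannot be told apart.

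**Figure D1:**
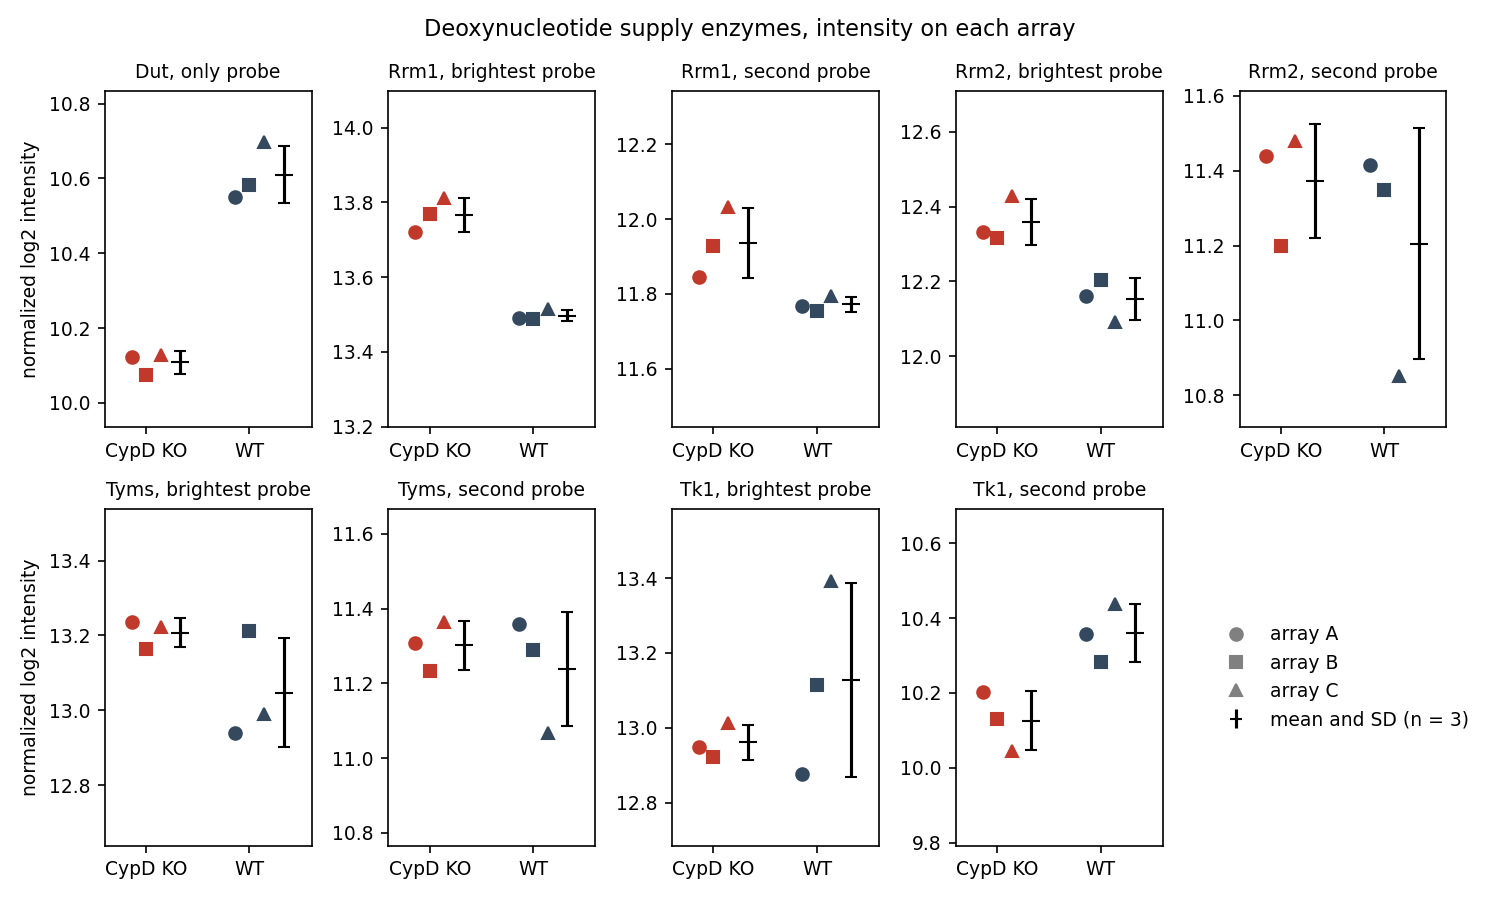
Normalized log2 intensity of the 9 probes on each array, with CypD knockout arrays left and wild-type arrays right in every panel; symbols mark arrays A, B and C, and bars the mean and SD of 3 arrays. Every panel spans the same range of the log2 scale. The groups are apart for Dut, for both Rrm1 probes, for the brightest Rrm2 probe and for the second Tk1 probe, and they overlap in the other 4 panels.

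The promoter windows of Dut, which fell, and of Rrm1 and Rrm2, which rose, are shown because these 3 genes passed by their brightest probes. The Rrm2 call was lost when any array was left out. Each window, taken from RefSeq on build GRCm38.p6, runs from 250 bases before to 50 after the listed start and is written along the strand of the gene. Capitals mark the letters CCAAT, the letters GGCGGG of the E2F core and the letters GGGCGG of an Sp1 box, on either strand. The last of these overlap in several places. The windows lie at chr2:125247265-125247564 (Dut, plus strand), chr7:102441445-102441744 (Rrm1, plus strand) and chr12:24708004-24708303 (Rrm2, plus strand).
Dut: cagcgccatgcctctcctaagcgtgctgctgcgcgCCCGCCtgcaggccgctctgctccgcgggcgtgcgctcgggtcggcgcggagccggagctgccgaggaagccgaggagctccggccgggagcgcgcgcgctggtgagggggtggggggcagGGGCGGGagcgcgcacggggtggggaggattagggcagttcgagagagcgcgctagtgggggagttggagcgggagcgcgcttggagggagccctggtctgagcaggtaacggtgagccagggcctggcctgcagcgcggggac
Rrm1: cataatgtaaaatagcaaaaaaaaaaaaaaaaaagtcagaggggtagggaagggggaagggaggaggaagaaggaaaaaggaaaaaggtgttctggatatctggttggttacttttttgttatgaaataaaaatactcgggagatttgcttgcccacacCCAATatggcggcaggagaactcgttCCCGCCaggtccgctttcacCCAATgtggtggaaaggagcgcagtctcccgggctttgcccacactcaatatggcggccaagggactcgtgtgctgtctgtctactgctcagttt
Rrm2: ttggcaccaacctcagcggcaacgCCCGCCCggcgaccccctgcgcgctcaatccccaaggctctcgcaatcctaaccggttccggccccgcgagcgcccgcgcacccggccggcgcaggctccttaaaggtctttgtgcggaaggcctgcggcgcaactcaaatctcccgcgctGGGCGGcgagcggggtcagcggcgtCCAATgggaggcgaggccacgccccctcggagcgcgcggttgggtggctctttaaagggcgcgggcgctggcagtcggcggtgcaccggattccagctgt

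With the listed start as position 0, CCAAT began at -91 and -45 in Rrm1 and at -50 in Rrm2, all on the strand of the gene. It was not in the windows of Dut, Tyms or Tk1. Of 32851 windows of 300 bases, 37.4% hold CCAAT on either strand, 35.3% hold GGCGGG and 35.7% hold GGGCGG. On either strand, GGCGGG was in the windows of Dut, Rrm1, Rrm2 and Tyms, and GGGCGG was in those of Dut, Rrm2, Tyms and Tk1. The longer E2F sites TTTGGCGC and TTTCGCGC, as well as TTTCCCGC and TTTGCCGC, were in none of the 5 windows and in 2.26% of all windows. TTTGAA, known as the CHR element, and TATAAA were in none of the 5 either, against 17.9% and 13.6% of all windows. The Dut window was 75% G and C and the Rrm1 window 47%, against a median of 52.7% over all windows. These matches are a description of the letters only.

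Dut, the dUTPase, had the largest difference of the 5 genes. Its scanner intensities were 1194, 1120 and 1207 on knockout arrays A, B and C, against 1731, 1646 and 1713 on wild-type arrays A, B and C. The highest knockout value was thus below the lowest wild-type value before any normalization. After background correction and quantile normalization the log2 intensities were 10.12, 10.07 and 10.13 in knockout cells, against 10.55, 10.58 and 10.70 in wild-type cells. The groups were separated by 0.42 on that scale, more than the spread within either. The means were 10.11 ± 0.030 in knockout and 10.61 ± 0.077 in wild type (SD, n = 3 each), and Dut fell by 0.50 ± 0.078 (SE, limma adjusted p = 0.00033). The 95% interval ran from -0.67 to -0.33. Of all tested named genes, whose listed probes each varied at least 1.20-fold, 82.1% had a smaller difference in size than Dut. The call held under all 15 alternatives, which gave log2 differences of -0.53 to -0.46 and adjusted p of 0.000247 to 0.00314 in limma. Dut rests on 1 probe, so there is no check from another part of its transcript.

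Rrm1, the large subunit of ribonucleotide reductase, rose by its brightest probe. The scanner intensities of that probe were 13239, 13486 and 13985 on knockout arrays A, B and C, against 12613, 11745 and 11899 on wild-type arrays A, B and C. The normalized log2 values were 13.72, 13.77 and 13.81 in knockout cells and 13.49, 13.49 and 13.51 in wild-type cells. The groups did not overlap on either scale, and the gap of 0.21 exceeded the whole range within each group. The means were 13.77 ± 0.045 in knockout and 13.497 ± 0.015 in wild type (SD, n = 3 each), a log2 difference of 0.27 ± 0.054 (SE, limma adjusted p = 0.00258). This size is common among the tested named genes, of which 56.8% had a smaller one. Those genes have probes that all varied at least 1.20-fold, so the share does not describe all probes on the arrays. The call held under all 15 alternatives, at log2 differences of 0.20 to 0.29, the lowest with median scaling. The limma adjusted p ranged from 0.00172 to 0.0365, the highest without the intensity trend.

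The second Rrm1 probe pointed the same way without passing. Its normalized log2 values were 11.85, 11.93 and 12.03 in knockout cells, against 11.77, 11.75 and 11.79 in wild-type cells. The groups were apart by 0.05 on that scale. In the scanner intensities they overlapped. Knockout arrays A, B and C read 3693, 3813 and 4206, and wild-type arrays A, B and C read 3907, 3600 and 3589. The log2 difference of this probe, 0.16 ± 0.070, did not pass (limma adjusted p = 0.132). Its interval of 0.01 to 0.31 overlaps that of the brighter probe, 0.15 to 0.39.

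Rrm2, the radical-bearing small subunit, rose by its brightest probe at the edge of the threshold. The normalized log2 values were 12.33, 12.32 and 12.43 in knockout cells, against 12.16, 12.20 and 12.09 in wild-type cells, with a gap of 0.11 between the groups. In the scanner intensities the groups overlapped, with 5097, 4944 and 5453 on knockout arrays A, B and C, against 5082, 4880 and 4430 on wild-type arrays A, B and C. The normalized means were 12.36 ± 0.061 in knockout and 12.15 ± 0.056 in wild type (SD, n = 3 each), a log2 difference of 0.21 ± 0.066 (SE, limma adjusted p = 0.0411). The call was lost whichever array was left out, with adjusted p of 0.0516 (without wild type B) to 0.167 (without knockout C) in limma. It was also lost with median scaling (adjusted p = 0.168), with no filter on dim probes (0.0634) and without the intensity trend (0.116). The direction was upward in all of these fits.

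The second Rrm2 probe gave no call and a wide interval. It read 11.44, 11.20 and 11.48 in knockout cells, against 11.42, 11.35 and 10.85 in wild-type cells. Wild type C was the lowest of the 6 arrays, and the remaining wild-type arrays lay among the knockout arrays. The log2 difference was 0.17 ± 0.13 (limma adjusted p = 0.443), with an interval of -0.11 to 0.44, and it was -0.0083 without wild type C.

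Tyms, thymidylate synthase, did not pass by either probe. The brightest probe read 13.24, 13.16 and 13.22 in knockout cells, against 12.94, 13.21 and 12.99 in wild-type cells, so that wild type B lay within the knockout range. Its log2 difference was 0.16 ± 0.073 (limma adjusted p = 0.16), with an interval of 0.0027 to 0.32. Without wild type B it passed, at 0.24 (adjusted p = 0.0232). The second probe had means of 11.30 ± 0.066 in knockout and 11.24 ± 0.15 in wild type (SD, n = 3 each) and a log2 difference of 0.06 (adjusted p = 0.698), which was -0.022 without wild type C.

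Tk1, the cytosolic thymidine kinase of S phase, was lower in knockout by both probes and passed by neither. The brightest probe read 12.95, 12.92 and 13.01 in knockout cells, against 12.88, 13.12 and 13.39 in wild-type cells. The knockout arrays were close together and the wild-type arrays spread on both sides of them. Its log2 difference was -0.17 ± 0.10 (limma adjusted p = 0.305), with an interval of -0.38 to 0.05. Without wild type A it passed, at -0.29 (adjusted p = 0.0337), and without wild type C it was -0.037 (adjusted p = 0.81). The second probe read 10.20, 10.13 and 10.04 in knockout cells, against 10.36, 10.28 and 10.44 in wild-type cells, with no overlap. Its log2 difference of -0.23 ± 0.082 missed the threshold (adjusted p = 0.0628) but passed with the filter on dim probes set at the 70th percentile (adjusted p = 0.0395).

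**Figure D2:**
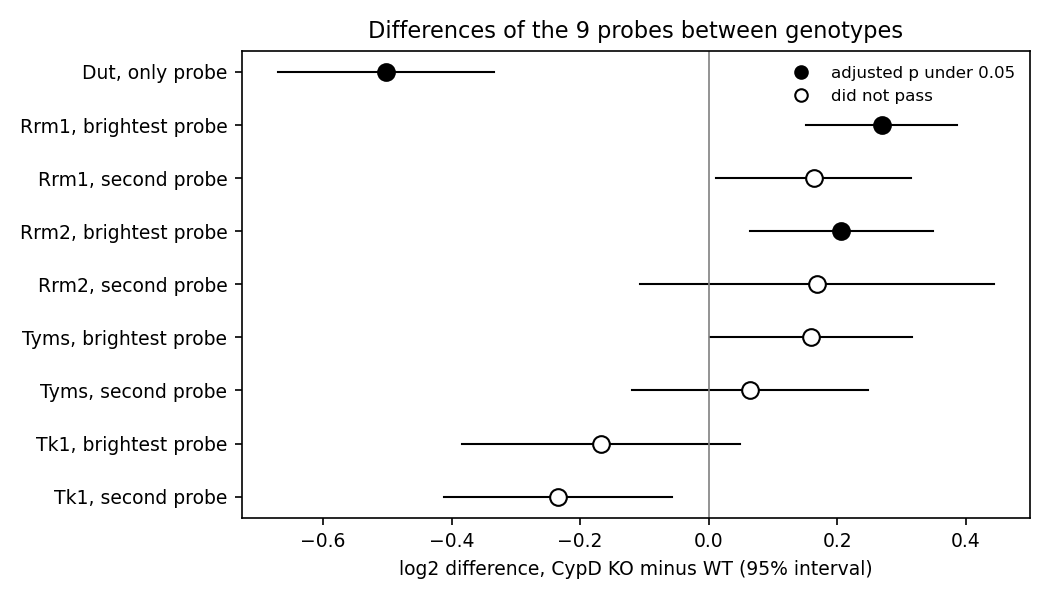
Log2 difference of each probe, CypD knockout minus wild type, with its 95% interval from limma (n = 3 arrays each). Filled points passed at an adjusted p under 0.05: Dut at -0.50, the brightest Rrm1 probe at 0.27 and the brightest Rrm2 probe at 0.21. The intervals of both Rrm1 probes lie above 0, and those of the second Rrm2 probe, the second Tyms probe and the brightest Tk1 probe span it.

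By brightest probe, the groups did not overlap for Dut, Rrm1 and Rrm2, which is 3 of 5 genes, against 56.1% of all named genes. The spread within groups differed between the genes. Wild type C stood 0.27 above the wild-type mean for the brightest Tk1 probe, and 0.35 and 0.17 below it for the second Rrm2 and second Tyms probes (deviations of -0.35 and -0.17). In knockout cells the largest deviation from the group mean was that of array B for the second Rrm2 probe, at -0.17. The SD was larger in wild type than in knockout for the brightest probes of Dut, Tyms and Tk1, and larger in knockout for those of Rrm1 and Rrm2.

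Ratios between members on the same array do not depend on a constant scaling of that array, so they were compared for the 10 pairs of genes, with brightest probes. The values were background-corrected and quantile-normalized, which are not constant scalings, so the ratios still depend on those steps. Dut minus Rrm1 was -3.60, -3.70 and -3.68 on knockout arrays A, B and C, against -2.94, -2.90 and -2.82 on wild-type arrays A, B and C. The ratio of Dut to Rrm1 was thus lower on every knockout array, with a difference of -0.77 on the log2 scale (means -3.66 ± 0.053 in knockout and -2.89 ± 0.062 in wild type, SD, n = 3 each). Dut was also lower against Rrm2 (difference -0.71), against Tyms (-0.66) and against Tk1 (-0.33), without overlap of the groups. Tk1 was lower against Rrm1, Rrm2 and Tyms, where the differences of the other gene minus Tk1 were 0.44, 0.37 and 0.33, again without overlap. Without wild type C, which had the highest Tk1 value, Rrm2 minus Tk1 was 0.21 and Tyms minus Tk1 was 0.17. The 3 ratios among Rrm1, Rrm2 and Tyms overlapped between the groups, with differences of 0.06, 0.11 and 0.05. Without wild type B, Rrm1 minus Rrm2 was 0.032, Rrm1 minus Tyms 0.022 and Rrm2 minus Tyms -0.010. In the exact permutation test the 7 pairs without overlap each reached p = 0.1, the smallest that 3 arrays against 3 allow, or 0.143 adjusted over the 10 pairs, so none could pass 0.05. Each of the 7 holds Dut or Tk1, so they are not independent. The share without overlap among pairs of other named genes was not computed, while 56.1% of single named genes did not overlap. The levels of 2 probes are not comparable, and only the change of their ratio between groups is given.

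**Figure D3:**
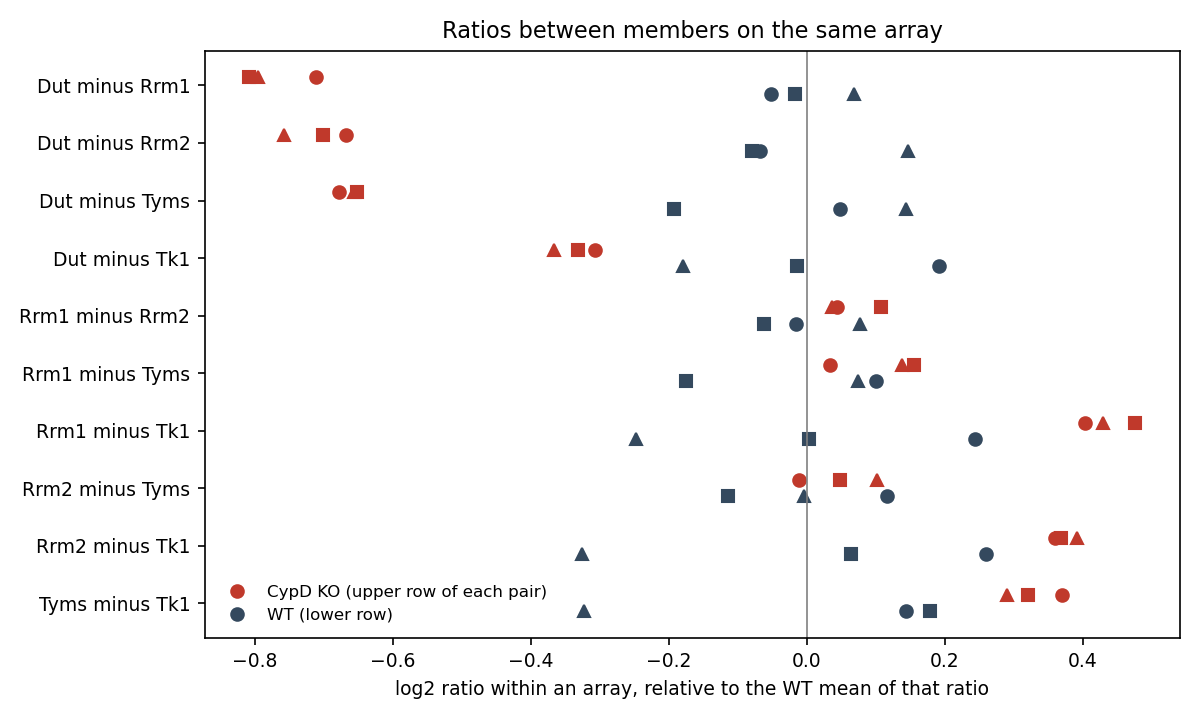
Log2 ratio of each pair of genes on each array, shown relative to the wild-type mean of that ratio, with CypD knockout arrays in the upper row of each pair and wild-type arrays in the lower row; symbols mark arrays A, B and C. The knockout points of the 4 ratios with Dut lie left of all wild-type points, from -0.77 (Dut minus Rrm1) to -0.33 (Dut minus Tk1) on average. The ratios among Rrm1, Rrm2 and Tyms overlap.

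The genes around these enzymes were described by lists, with the same fit and the background of 43.6% called. That background covers only genes with a probe in the processed table, where every probe varied at least 1.20-fold over the arrays. List genes without such a probe were not tested. Of all 27168 probes tested, 20.0% passed. Of 40 genes of dNTP synthesis, salvage and pool control besides the 5, 28 had a tested and named probe. Of these, 8 rose, 8 fell and 12 did not pass, with a median log2 difference of -0.03. Rrm2b, the p53-inducible alternative to Rrm2 in ribonucleotide reductase, fell, unlike Rrm1 and Rrm2. It read 10.46, 10.55 and 10.29 in knockout cells, against 10.95, 10.95 and 10.81 in wild-type cells, without overlap (log2 difference -0.47 ± 0.087, limma adjusted p = 0.0015). Dguok, the mitochondrial deoxyguanosine kinase, rose by 0.47 ± 0.078 (adjusted p = 0.000555), and its second probe by 0.38 (adjusted p = 0.0236). Nme4, a mitochondrial nucleoside diphosphate kinase, rose by 0.53 ± 0.079, as did 1 of its 2 dimmer probes (0.40, against 0.26 without passing), whereas Slc29a1, the equilibrative nucleoside transporter, fell by 0.53 ± 0.069, with a second, dim probe that did not pass (-0.26, adjusted p = 0.384).

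Adenylate kinases went both ways, with Ak4 (-0.68) and Ak1 (-0.57) lower in knockout and Ak3 (0.34) higher, and Cda, cytidine deaminase, rose by 0.48. These 8 genes kept their calls under the 15 alternatives. The brightest genes that did not pass were Nme1, Uck2, Nt5m and Slc25a36, at -0.07, -0.15, -0.15 and 0.22 (the last -0.0026 without wild type C), although a second Uck2 probe passed (-0.20, adjusted p = 0.0452) and the brightest Uck2 probe passed with median scaling (-0.23) and without knockout A (-0.21). A few further genes, chosen after their values were seen for their closeness to the 5 enzymes, were Samhd1, Tk2 and Dtymk. Samhd1, which degrades dNTPs, fell by 0.36 ± 0.083 (limma adjusted p = 0.00604), though its other probes did not pass (-0.20 and -0.14). Tk2, the mitochondrial thymidine kinase, had a log2 difference of 0.31 ± 0.091 (adjusted p = 0.026), a call lost without knockout B (0.133), wild type A (0.0516) or wild type B (0.0549). The Tk2 call was also lost without the intensity trend (limma adjusted p = 0.0669). Dtymk, which phosphorylates the dTMP made by Tyms and Tk1, was at -0.23 ± 0.074 (adjusted p = 0.0459). Its call was lost without any one of the knockout arrays A, B and C or the wild-type arrays A and B (adjusted p = 0.113, 0.147, 0.0811, 0.0697 and 0.178). The Dtymk call was lost in other fits too, among them those without a filter on dim probes (limma adjusted p = 0.0703) and without the intensity trend (0.0956).

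The folate cycle, which carries the methyl group that Tyms uses, had 11 tested genes of 21. Of these 1 rose, 4 fell and 6 did not pass, with a median of -0.18. Shmt1 and Shmt2, the cytosolic and mitochondrial serine hydroxymethyltransferases, fell by 0.56 ± 0.069 and 0.39 ± 0.069 (limma adjusted p = 3.8e-05 and 0.000935), while the second probe of each did not pass (0.10 and -0.20). Aldh1l2, a mitochondrial formyltetrahydrofolate dehydrogenase, fell by 0.65, and its second probe by 0.49. Gldc, the glycine decarboxylase, rose by 2.31 ± 0.12 (adjusted p = 9.64e-09) and its second probe by 1.01. Slc19a1, the reduced folate carrier, was at -0.22 (adjusted p = 0.0264), a call lost without any one of knockout A, B and C or wild type A and B (adjusted p = 0.0579 to 0.0903). The Slc19a1 call was also lost without the intensity trend (limma adjusted p = 0.0733). Mthfd1, Mtrr, Phgdh and Fpgs did not pass, at -0.14, -0.21, -0.18 and -0.02, though Phgdh passed without wild type C (-0.38, adjusted p = 0.00746). A second Mtrr probe passed (-0.62, adjusted p = 0.000896).

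In de novo pyrimidine and purine synthesis, 17 of 23 genes were tested, and 2 rose, 4 fell and 11 did not pass (median -0.02). Adsl and Prps2, enzymes of purine synthesis and of its ribose phosphate donor, fell by 0.58 and 0.35, and Hprt, the purine salvage enzyme, by 0.20. The Hprt call was lost without the intensity trend (adjusted p = 0.105), and its second probe did not pass (-0.04). Ampd3, an AMP deaminase, fell by 1.33 ± 0.083 (limma adjusted p = 4.24e-08). Paics, a step of the purine ring, rose by 0.42 and Adssl1, an adenylosuccinate synthase of muscle, by 0.82. The brightest genes that did not pass were Aprt (0.15), Ctps (-0.17), Atic (-0.12) and Adss (0.20, or -0.097 without wild type C), of which Aprt, Ctps and Atic passed without wild type C (adjusted p = 0.0496, 0.0354 and 0.0265). Ctps, CTP synthase, also passed with median scaling and by 1 of its 2 other probes (-0.32).

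The thioredoxin and glutaredoxin systems, which reduce ribonucleotide reductase after each turnover, had 7 tested genes of 10, of which 1 rose, 2 fell and 4 did not pass (median 0.13). Gclm, the modifier subunit of glutathione synthesis, and Txn2, mitochondrial thioredoxin, fell by 0.42 and 0.43. The second Txn2 probe did not pass (0.07). Txnrd2 was at 0.31 (limma adjusted p = 0.034), a call lost without any array but wild type C (adjusted p = 0.0708 to 0.151). The Txnrd2 call was also lost without the intensity trend (limma adjusted p = 0.0651). Txn1 was at 0.15 by its brightest probe, which did not pass except without wild type C (adjusted p = 0.0277). Its dimmer probes passed in the other direction (-0.30 and -0.43). By their brightest probes, Gclc, Glrx2 and Txnrd1 did not pass, at 0.23, -0.13 and 0.13, but a second Glrx2 probe passed (0.72).

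In repair of uracil and oxidised bases, next to Dut in keeping uracil out of DNA, 10 of 14 genes were tested and 4 rose, 1 fell and 5 did not pass (median 0.21). Smug1, a uracil DNA glycosylase, fell by 0.55 ± 0.072 (adjusted p = 7e-05), while Ung, the main uracil DNA glycosylase at replication forks, was at 0.13 ± 0.074 (adjusted p = 0.283). Lig1, the DNA ligase of replication, rose by 0.32 ± 0.068, with 1 of its 3 other probes passing (0.55). Lig3, Polb and Mutyh, which act in base excision repair, were at 0.30, 0.35 and 0.34, with calls lost when certain single arrays were left out (adjusted p up to 0.0533 for Lig3, 0.0791 for Polb and 0.13 for Mutyh). The Mutyh call was also lost without the intensity trend (limma adjusted p = 0.0511). The second Lig3 probe, almost as bright, did not pass (0.06, adjusted p = 0.682). Without knockout B, knockout C or wild type A, 3 genes of the list passed in place of 5. Apex1, Xrcc1 and Parp1 did not pass, at -0.21, 0.07 and -0.07.

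Among 20 tested genes of 30 that regulate the members, 7 rose, 4 fell and 9 did not pass (median 0.05). Without wild type A, 7 passed in place of 11. E2f5 and E2f6, which act mainly as repressors, rose by 0.61 ± 0.061 and 0.36 ± 0.061. A second E2f6 probe passed (0.41) and a dimmer one did not (0.19). E2f1, an activator of S-phase genes, was at 0.30 ± 0.077 (limma adjusted p = 0.0124), a call lost without knockout B, knockout C or wild type A (adjusted p = 0.0712, 0.0679 and 0.0542). The E2f1 call was also lost without the intensity trend (limma adjusted p = 0.0544). Mybl2, a partner of the cell cycle complex that binds CHR elements, fell by 0.62, as did Tfdp2, a dimer partner of E2F factors, by 0.34. The second Mybl2 probe passed (-0.52), while the other Tfdp2 probes did not (-0.28 and -0.26). Cdkn1a, which encodes the p53 target p21, fell by 0.44 and the DNA damage kinase Atm by 0.50. The other Cdkn1a probes passed (-0.61 and -0.39), and the second Atm probe did not (-0.27). Fzr1, an activator of the anaphase-promoting complex, rose by 0.30, while its other probes did not pass (0.18 and 0.21). Tfdp1, Cdc20, Mdm2 and E2f3 did not pass, at 0.22, -0.02, -0.01 and -0.20, although a second E2f3 probe passed (-0.30, adjusted p = 0.0236).

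The replication list, which covers the use of the nucleotides in S phase, had 31 tested genes of 53. There were 9 that rose, 4 that fell and 18 that did not pass, with a median of 0.15, and 8 of the 13 kept their calls under all 15 alternatives. Pcna, the sliding clamp, read 11.40 ± 0.14 in knockout and 10.90 ± 0.16 in wild type (SD, n = 3 each), and Top2a, the topoisomerase of dividing cells, 13.06 ± 0.14 in knockout and 12.91 ± 0.064 in wild type. Pcna passed (log2 difference 0.50, limma adjusted p = 0.00158) and Top2a did not (0.15, adjusted p = 0.187). Cdc25a, a phosphatase that activates Cdk2, rose by 1.10 by its brightest probe, and the other did not pass (0.05). Orc6 of the origin recognition complex, Rpa3 of the single-strand binding protein, Gins2 of the helicase complex, Rfc1 of the clamp loader and Chaf1b of chromatin assembly rose by 0.36, 0.36, 0.34, 0.33 and 0.29. Prim2, a primase subunit, fell by 0.34. Mcm6, Mcm2 and Rpa1 did not pass, at 0.20, 0.16 and -0.16, and each passed under at least 1 alternative (adjusted p down to 0.0231 for Mcm6, 0.0282 for Mcm2 and 0.00851 for Rpa1). Another Mcm6 probe passed, at 5.03, with a lower mean log2 intensity over all arrays (11.17, against 12.68 for the brightest).

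**Figure D4:**
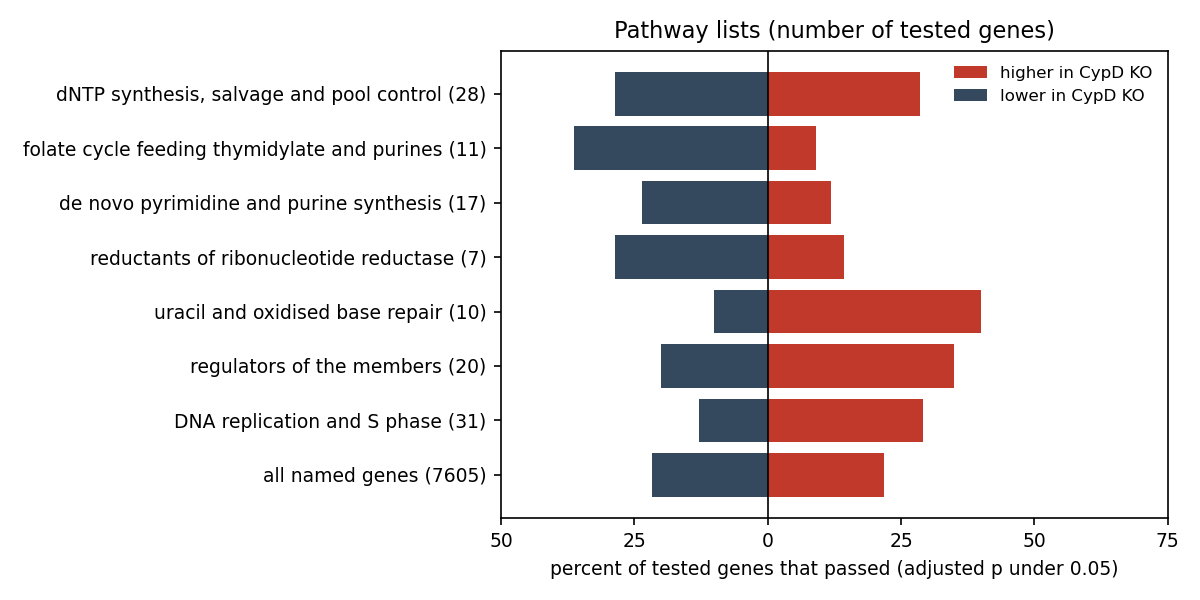
Percent of the tested genes of each list that passed at an adjusted p under 0.05, with genes higher in CypD knockout cells to the right of 0 and lower ones to the left; the number of tested genes is in brackets, and the lowest bar shows all named genes (21.8% each way). The dNTP list has equal shares in both directions, while falls outnumber rises in the folate list.

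The patterns most like each enzyme over the 6 arrays were found by Pearson's correlation of log2 intensity with 7600 other named genes. They are a description, since the 6 arrays are the same and differ mainly by genotype. Cgrrf1 (r = 0.999) and Tmem51 (0.998) were closest to Dut, and 761 genes exceeded 0.95. Mak16 and Hnrnpd (both 0.998) were closest to Rrm1, with 689 genes above 0.95. For Rrm2 the closest were Dlc1 (0.998) and Egf (0.994), with 101 genes above 0.95. Tyms was followed most closely by Mtmr4 (0.974) and Zc4h2 (0.97), and Tk1 by Gps1 (0.992) and Gm2a (0.983), with 12 and 16 genes above 0.95.

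Ppif, which encodes cyclophilin D, fell by 1.37 ± 0.066 in knockout cells (limma adjusted p = 2.96e-09) and kept a bright signal. Where its probe lies relative to the deletion is not stated, so the fall shows less Ppif signal and not the loss of the deleted part. Of 15 fibroblast markers 11 were tested, 3 higher, 5 lower and 3 not passing, with bright Col1a1 at 13.36 ± 0.036 in knockout and 13.99 ± 0.058 in wild type (SD, n = 3 each). S100a4, Dcn, Col1a2 and Sparc also fell (log2 differences of -1.62, -0.64, -0.36 and -0.22), whereas Pdgfra, Col3a1 and Pdgfrb rose (1.47, 1.13 and 0.41). Dcn was dim in knockout, at 6.97 or the 43.9th percentile of all probes, near the filter at the 40th. The summed linear intensity of the 11 fibroblast markers was 68379 to 70754 in knockout and 78707 to 84092 in wild type. The 3 tested neural markers of 7 summed to 1764 to 1870 in knockout and 5581 to 6250 in wild type. The 3 tested epithelial markers summed to 1822 to 1935 in knockout and 1372 to 1425 in wild type. Of these, Spint1 rose by 0.78, Krt19 fell by 0.35 and Cdh1 did not pass (-0.09). The single endothelial marker, Eng, stood at 279 to 288 in knockout and 170 to 238 in wild type. Tested leukocyte (2 of 9), erythroid (1 of 8) and skeletal muscle (2 of 6) markers overlapped between the groups in summed intensity. In the muscle pair, Acta1 fell by 0.79 (limma adjusted p = 0.00028) and the brighter Myl4 did not pass (0.16). Acta1 was likewise dim in knockout, at 6.94 or the 42.5th percentile. The summed values are background-corrected and quantile-normalized and include an offset of 50. Without detection p-values no marker could be called absent, and the part of other cell types in the values of the 5 enzymes was not tested.

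**Figure D5:**
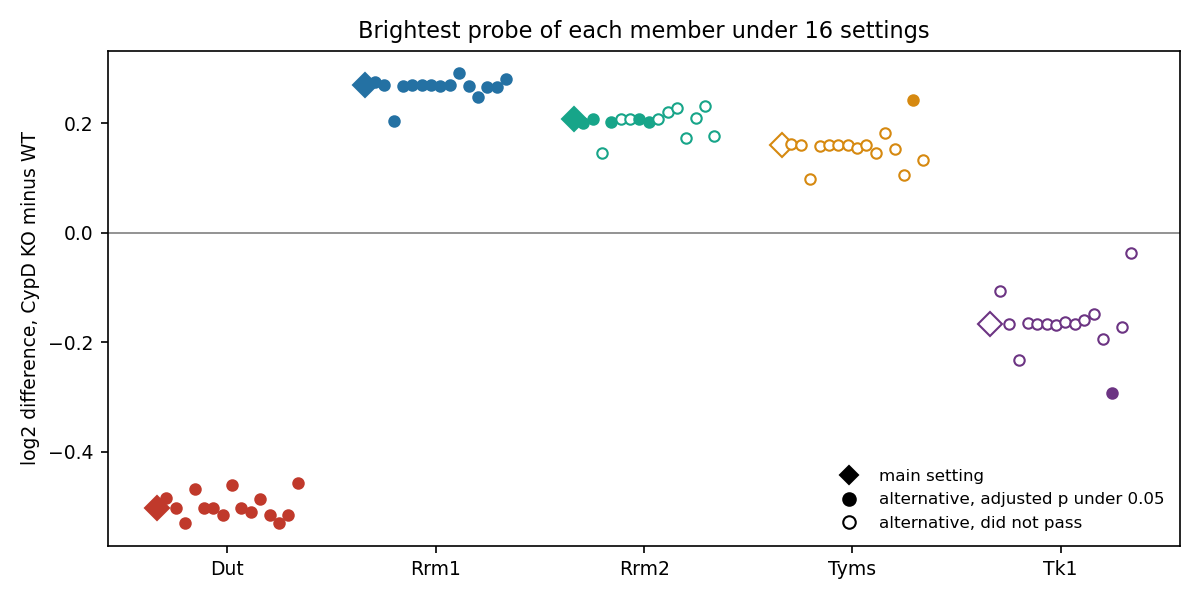
Log2 difference of the brightest probe of each gene, CypD knockout minus wild type, under the setting used for the report (diamond) and 15 alternatives (circles); filled symbols passed at an adjusted p under 0.05. Dut and Rrm1 are filled throughout, Rrm2 passed in 5 of 15 alternatives, and Tyms and Tk1 passed in 1 alternative each.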

How the data were processed

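For each array the authors deposited scanner intensities on a linear scale (45281 probes), and for the series 1 table of processed intensities (12534 probes). BeadStudio 3.0 is named per the submitters' processing notes, and its settings are not stated. Processed values equalled 0.979 to 1.01 times scanner intensities that had been quantile-normalized. Depth does not apply to arrays; their number, 3 per group, limits the precision. Array medians were 226 to 229 in knockout and 223 to 251 in wild type.

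In limma 3.58.1 (R 4.3.3), normexp with an offset of 50 corrected the background, and log2 values were then made equal in distribution by quantile normalization. The files hold no detection p-values, so probes above the 40th percentile of mean log2 intensity were kept (27168), and all 9 member probes passed. Genotypes were compared with lmFit and eBayes with an intensity trend, two-sided, Benjamini-Hochberg adjusted over all probes kept. A gene was read from its brightest probe. Fold changes of dim probes are compressed by the offset. The limma fit alone was tested on simulated log2 values, without the background correction, the normalization or the filter.

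The members and lists were chosen with earlier results of these data known. Named list genes were, for each list, up to 8 that passed, by lowest p, and the 4 brightest that did not. Ratios between members used exact permutation tests (scipy 1.17.1). Promoters and current symbols came from RefSeq, GRCm38.p6. Alternatives changed the background correction, offset (16), scaling, values, filter (none, 70th percentile), trend, array weights, replicate block and arrays left out; for the lists, the probe of highest variance stood for a gene.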

Additional observations from a re-analysis of the deposited data

How the results depend on the processing

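The counts of called probes, of the nucleotide lists together and of the replication list stayed within 1.5 times the reported count under every alternative run. For the other lists taken singly, an alternative chosen after seeing the data, the called genes of base repair numbered 3 to 6 with 1 array left out, against 5, and those of the regulators 7 to 10, against 11. With the probe of highest variance for a gene, 5 reductants passed, against 3. Each ratio between members moved by less than the larger of its 2 group SDs, that of wild type in all 10; against the smaller knockout SDs some moved by more. Dut and Rrm1 kept their calls in all 15 alternatives. The Rrm2 call was lost with median scaling (log2 difference 0.15, adjusted p = 0.168), without a filter (0.21) and without the intensity trend (0.21). Leaving out 1 array gave 0.17 to 0.23 for Rrm2, 0.11 to 0.24 for Tyms (passing without wild type B) and -0.29 to -0.037 for Tk1 (passing without wild type A). The second probes of Rrm2 and Tyms ranged from -0.0083 to 0.27 and from -0.022 to 0.12, turning direction without wild type C. Wild type C also stood apart across probes. The SD of log2 differences was 0.226 to wild type A and 0.241 to wild type B, against 0.188 between wild type A and B. Among the knockout arrays it was 0.184 to 0.194. Without wild type C, 2856 probes rose and 3047 fell, against 2656 and 2767. Leaving out any other single array lowered both counts. The cause was not tested. With the letters as a replicate block, Rrm2 was not called (0.21, adjusted p = 0.0662), and 2534 probes rose and 2739 fell, against 2656 and 2767. Median scaling gave 2283 and 3119. Deviations of same-lettered arrays correlated at 0.10, -0.09 and 0.08 for A, B and C, so the letters were not taken as pairs. Of 98 other named genes, 97 of 1465 refits lost a call, 18 gained one and 11 turned direction, all in genes that did not pass. With 1 array left out, the log2 differences ran from -0.097 to 0.37 for Adss, -0.0026 to 0.34 for Slc25a36, -0.082 to 0.071 for Cdc20, -0.13 to 0.074 for Fpgs, -0.20 to 0.018 for Gm2a, -0.087 to 0.094 for Mdm2 (0.025 with array weights), -0.17 to 0.027 for Parp1 and -0.012 to 0.13 for Xrcc1. Signal over background could not be measured in these files.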

Other observations

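Probes of the same gene differed in a few genes near these enzymes, chosen after their values were seen. Mcm6, a subunit of the replicative helicase, had log2 differences (knockout minus wild type) of 0.20 ± 0.070 by its brightest probe, 5.03 ± 0.099 by another (limma adjusted p = 7.18e-13) and 0.28 ± 0.18 by the third. Txn1, cytosolic thioredoxin, had 0.15 by its brightest probe and -0.30 and -0.43 by dimmer ones (adjusted p = 0.0381 and 0.0128). Glrx2, a mitochondrial glutaredoxin, had -0.13 by its brightest probe (adjusted p = 0.283) and 0.72 by the other (adjusted p = 0.000864). Cdc25a, a phosphatase that activates Cdk2 at S-phase entry, had 1.10 by its brightest probe (adjusted p = 1.66e-06) and 0.05 by the other (adjusted p = 0.847).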
